A study of Mus musculus with 7 samples.

Results

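The 10 genes tied to the primary (azurophil) granules of neutrophils and to the progenitors that fill them were followed through RNA-seq of mouse bone marrow hematopoietic stem cells (HSCs). They were taken by symbol, as Mpo, Elane, Prtn3, Ctsg, Ms4a3, Clec12a, Plac8, Calr, Igsf6 and Hp. All 10 of these symbols were found among the 23284 genes of the count table, and all 10 passed the filter on low counts, as did 12917 genes in all. The sorted fractions of HSCs compared were Hdc-GFPhi (3 libraries) and Hdc-GFPlo (4 libraries). Both came from bone marrow of C57BL/6 animals with a green fluorescent protein reporter of Hdc, the histidine decarboxylase gene, and each library was made from 500 sorted cells. The labels give no treatment, age or further allele, and they do not say how the reporter was built or which surface gate defined an HSC. Whether the replicates came from different animals is not in the labels, and p-values therefore reflect only the scatter of these libraries, which may be technical. Hdc-GFPlo replicate 4 is described apart throughout, because its sorted fraction is labelled as GFP negative while the other libraries of its group are labelled as GFP low. Its title and description call it GFPlo like the others, and the count columns name all 4 libraries of the group GFPminus. Whether it was sorted in another way is therefore not settled by the labels.

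Azurophil granules are the first granules that a developing neutrophil builds, at the promyelocyte stage, and they carry myeloperoxidase and a family of serine proteases that kill engulfed microbes. Transcription of these genes is high in granulocyte and monocyte progenitors and is shut down again as the cell matures and starts to make secondary granules, so their mRNA marks a window of differentiation rather than the mature neutrophil. In stem cells they are known as early signs of myeloid priming. The name of the group covers only some of the genes: Mpo, Elane, Prtn3 and Ctsg encode granule proteins, Ms4a3, Clec12a and Igsf6 encode membrane proteins of myeloid cells, Plac8 is a small protein of unsettled biochemical role found in many immune cells, Calr is a chaperone of every cell, and haptoglobin (Hp) is a hemoglobin-binding plasma protein that neutrophil precursors also make.

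The Hdc-GFPhi libraries held 21090553 to 23688672 counts and the Hdc-GFPlo libraries 19606124 to 22472061. A gene with 0 counts could have had up to 3, which equalled 0.125 to 0.142 CPM (counts scaled to library size by TMM factors) in Hdc-GFPhi libraries and 0.134 to 0.160 CPM in Hdc-GFPlo libraries, which covers counting error only. The labelled cell type was checked on 12 HSC markers. All 12 were detected in every library, with a summed level of 4271 to 4768 CPM in Hdc-GFPhi and 5158 to 5362 CPM in Hdc-GFPlo. Markers of other cells were present too. The 10 neutrophil markers summed to 5923 to 8249 CPM in Hdc-GFPhi, against 3338 to 6832 CPM in Hdc-GFPlo replicates 1 to 3 and 2794 CPM in replicate 4. Mmp8 was at 0 in Hdc-GFPlo replicate 4 only. The 10 eosinophil markers summed to 732 CPM in Hdc-GFPhi replicate 1 and to 10.7 and 12.2 CPM in the other Hdc-GFPhi libraries. In Hdc-GFPlo they summed to 17.8 to 52.1 CPM in replicates 1 to 3 and to 14.4 CPM in replicate 4. In bulk RNA, fewer cells of a type and less RNA per cell cannot be told apart, which holds for every level given here.

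Mpo encodes myeloperoxidase, the heme enzyme that makes hypochlorous acid and is the most abundant protein of the azurophil granule. It had 1725, 566 and 226 CPM in Hdc-GFPhi replicates 1 to 3, against 398, 393, 923 and 19.6 CPM in Hdc-GFPlo replicates 1 to 4. The ranges of the groups lay largely on top of each other, and the lowest library by far was Hdc-GFPlo replicate 4, with 405 counts where the other 6 libraries had 4762 to 38996. The span from the highest to the lowest library was 88.2-fold. The Mpo level averaged 839 ± 786 CPM over Hdc-GFPhi libraries (SD, n = 3) and 433 ± 371 CPM over Hdc-GFPlo libraries (SD, n = 4). The log2 fold change of Hdc-GFPhi over Hdc-GFPlo was 0.95 ± 1.27 (SE), with an adjusted p of 0.814 by edgeR's quasi-likelihood test with Benjamini-Hochberg adjustment. Without Hdc-GFPhi replicate 1 the same difference was -0.13 ± 1.43, and without Hdc-GFPlo replicate 4 it was 0.55 ± 0.89.

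Elane, neutrophil elastase, is the serine protease whose mutations cause congenital and cyclic neutropenia in people. It had 469, 159.8 and 46.2 CPM in Hdc-GFPhi replicates 1 to 3, against 129.7, 56.5 and 262 CPM in Hdc-GFPlo replicates 1 to 3 and not a single count in Hdc-GFPlo replicate 4. In every other library Elane had between 974 and 10608 counts. Against the limit of 3 counts in that library, the Elane level of Hdc-GFPlo replicate 4 was at least 1030-fold lower than the mean of the other 3 Hdc-GFPlo libraries. The means were 225 ± 219 CPM over Hdc-GFPhi libraries (SD, n = 3) and 112 ± 113 CPM over Hdc-GFPlo libraries (SD, n = 4). This gave a log2 fold change of 1.0 ± 1.69 (SE; edgeR adjusted p = 0.859), and -0.12 without Hdc-GFPhi replicate 1.

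Ctsg, cathepsin G, is a chymotrypsin-like protease of the same granule. Its level was 108, 29.6 and 11.1 CPM in Hdc-GFPhi replicates 1 to 3, against 26.9, 16.0 and 64.2 CPM in Hdc-GFPlo replicates 1 to 3, and it again had 0 counts in Hdc-GFPlo replicate 4. The mean of Hdc-GFPlo replicates 1 to 3 was at least 246-fold above the limit of 3 counts in replicate 4. Group means were 49.6 ± 51.6 CPM over Hdc-GFPhi libraries (SD, n = 3) and 26.8 ± 27.3 CPM over Hdc-GFPlo libraries (SD, n = 4), with a log2 fold change of 0.89 ± 1.53 (SE; edgeR adjusted p = 0.863). Leaving out Hdc-GFPhi replicate 1 turned the difference to -0.39.

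Mpo, Elane and Ctsg ranked the 7 libraries in one and the same order. Hdc-GFPhi replicate 1 was highest, then Hdc-GFPlo replicate 3, Hdc-GFPhi replicate 2, Hdc-GFPlo replicates 1 and 2, Hdc-GFPhi replicate 3 and, last, Hdc-GFPlo replicate 4. Of the 12917 genes tested, 6 had this order (0.0465%), Mpo included, and 5 of them averaged 5 CPM or more. The other genes among these 5 were Cst7, which encodes cystatin F, an inhibitor of cysteine proteases in immune cells, and the septin gene Sept6. In this order libraries of both fractions alternate. Summed over Mpo, Elane and Ctsg, the level was 2302, 755 and 283 CPM in Hdc-GFPhi replicates 1 to 3, against 554, 466, 1249 and 19.6 CPM in Hdc-GFPlo replicates 1 to 4.

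Prtn3, proteinase 3, is the protease that autoantibodies bind in human granulomatosis with polyangiitis. Its level was 246, 130.4 and 105 CPM in Hdc-GFPhi replicates 1 to 3, against 119.6, 103, 148 and 111 CPM in Hdc-GFPlo replicates 1 to 4. Hdc-GFPlo replicate 4, which had no counts of Elane or Ctsg, sat inside the range of the other libraries, with 2303 counts, and its level was lower than the mean of Hdc-GFPlo replicates 1 to 3 by a factor of only 1.11. Between the highest and the lowest library Prtn3 differed 2.40-fold. Its means were 160.4 ± 75.6 CPM over Hdc-GFPhi libraries (SD, n = 3) and 120.4 ± 19.6 CPM over Hdc-GFPlo libraries (SD, n = 4). The log2 fold change was 0.41 ± 0.26 (SE; edgeR adjusted p = 0.552), and it was -0.04 without Hdc-GFPhi replicate 1, the one library in which Prtn3 stood high.

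In the RefSeq order of genes on chromosome 10 (GRCm38.p6), Elane comes directly after Prtn3, followed by Cfd and Med16. In Hdc-GFPlo replicate 4 the 4 genes had 0 counts for Elane, 2303 for Prtn3, 0 for Cfd and 2597 for Med16, a subunit of the Mediator complex. Cfd, complement factor D, had 0 to 39 counts in every library. Prss57, another serine protease of azurophil granules, had 31.7, 18.8 and 14.7 CPM in Hdc-GFPhi, against 18.6, 16.8, 33.2 and 17.7 CPM in Hdc-GFPlo replicates 1 to 4. Like Prtn3 it was not low in Hdc-GFPlo replicate 4.

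**Figure D1:**
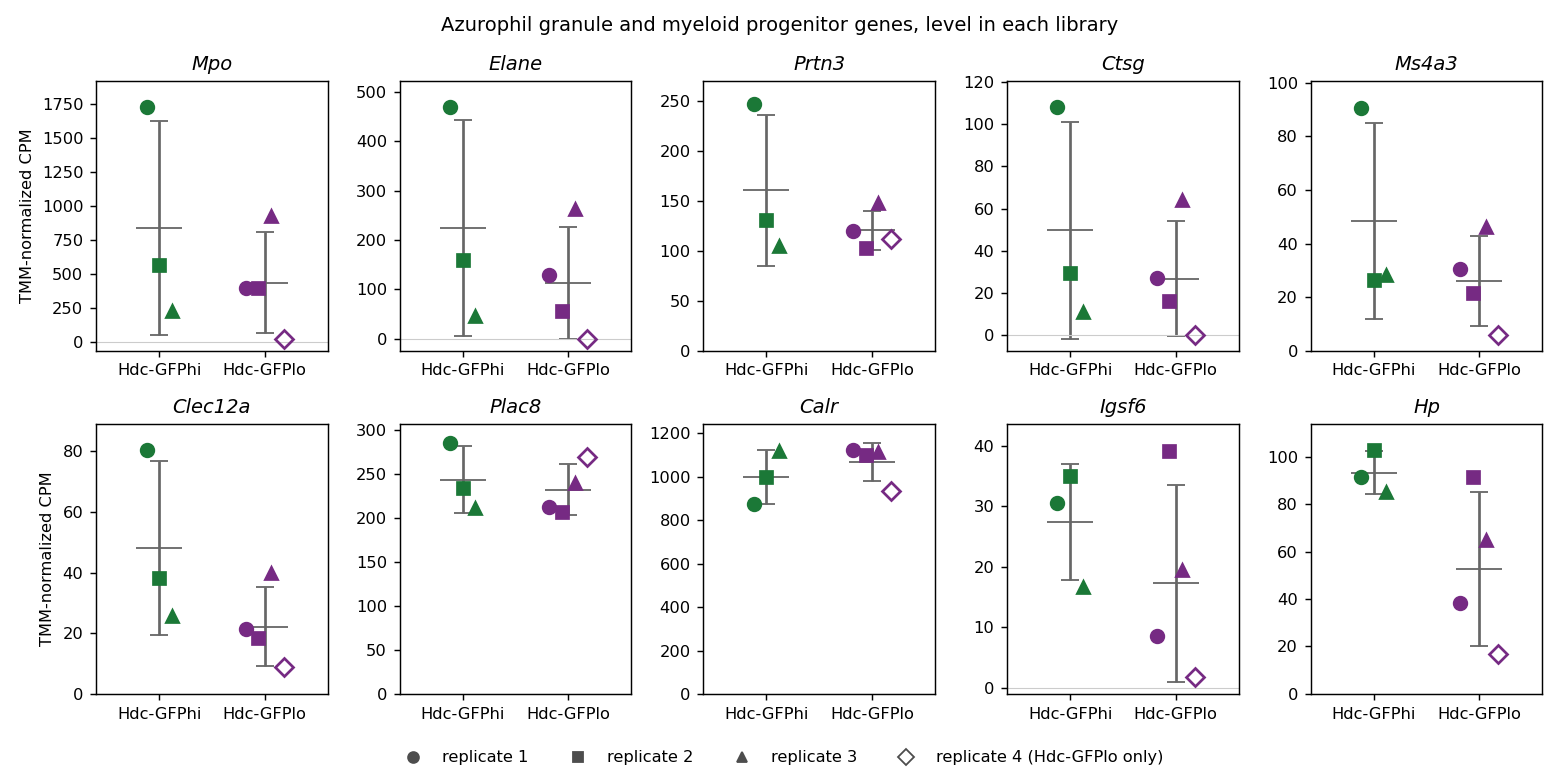
TMM-normalized CPM of each of the 10 genes in each library, with Hdc-GFPhi on the left and Hdc-GFPlo on the right of each panel; marker shapes give the replicate, the open diamond is Hdc-GFPlo replicate 4, and lines give the mean ± SD of each group. Mpo, Elane and Ctsg are at 19.6, 0 and 0 CPM in Hdc-GFPlo replicate 4, where Prtn3, Plac8 and Calr lie at 111, 269 and 937 CPM.

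The start regions of Mpo, Elane, Ctsg and Prtn3 are shown because the first 3 genes shared their library order while Prtn3, the neighbour of Elane, did not follow them to 0. Each is the RefSeq promoter in GRCm38.p6, 5′ to 3′ on the strand of the gene, from 250 bases before to 50 bases after the transcription start. Capitals mark the letters GAGGAA, a core that PU.1 and other ETS factors are known to bind. The regions are chr11:87793534-87793833 (plus strand) for Mpo, chr10:79886062-79886361 (plus strand) for Elane, chr14:56102525-56102824 (minus strand) for Ctsg and chr10:79879417-79879716 (plus strand) for Prtn3.
Mpo: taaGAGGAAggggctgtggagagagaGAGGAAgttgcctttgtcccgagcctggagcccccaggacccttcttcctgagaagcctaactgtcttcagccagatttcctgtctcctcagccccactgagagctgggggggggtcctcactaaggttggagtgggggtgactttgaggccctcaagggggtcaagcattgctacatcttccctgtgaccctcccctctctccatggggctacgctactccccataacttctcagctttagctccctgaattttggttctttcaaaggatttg
Elane: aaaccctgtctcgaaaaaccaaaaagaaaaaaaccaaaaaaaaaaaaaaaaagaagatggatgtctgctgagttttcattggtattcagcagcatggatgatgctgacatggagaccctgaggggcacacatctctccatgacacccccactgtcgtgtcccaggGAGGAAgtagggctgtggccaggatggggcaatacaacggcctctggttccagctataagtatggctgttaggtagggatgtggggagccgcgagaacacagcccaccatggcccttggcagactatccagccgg
Ctsg: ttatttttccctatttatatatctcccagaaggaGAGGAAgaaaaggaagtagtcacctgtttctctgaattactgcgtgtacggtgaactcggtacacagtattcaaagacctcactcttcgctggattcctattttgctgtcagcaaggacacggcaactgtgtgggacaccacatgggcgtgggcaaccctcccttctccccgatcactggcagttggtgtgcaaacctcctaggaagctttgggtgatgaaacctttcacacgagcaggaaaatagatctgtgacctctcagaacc
Prtn3: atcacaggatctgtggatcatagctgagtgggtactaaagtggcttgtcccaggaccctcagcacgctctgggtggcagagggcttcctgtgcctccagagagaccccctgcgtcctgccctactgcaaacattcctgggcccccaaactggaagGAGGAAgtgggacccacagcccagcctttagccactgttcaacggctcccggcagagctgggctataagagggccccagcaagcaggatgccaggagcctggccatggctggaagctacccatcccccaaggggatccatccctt

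The letters GAGGAA begin at -247 and -224 from the start in Mpo, at -85 in Elane, at -216 in Ctsg and at -95 in Prtn3. Searched on both strands, GAGGAA was present in 8 of the 9 genes with a promoter in the table, all except Calr, and in 28.3% of the 32851 mouse promoters. That share counts promoters and not genes. Plac8 had 2 promoters, with GAGGAA only in promoter 1. Hp was not matched. The letters TAACNG, a core bound by MYB, occurred in Mpo at -166 and, on the opposite strand, in Elane at -20, against 23.3% of all promoters. In Ctsg, both on the opposite strand, TGTGGT, a RUNX core, occurred at -79, against 16.8% of all promoters, and TATAAA at -237, against 13.6%. The C/EBP letters TTGCNNAA (10.8% of all promoters) and the GATA letters AGATAA (11.2%) were in none of these 4 windows, and no match overlapped another in them. A match is a description of the letters and not a binding site.

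Ms4a3 and Clec12a, which encode membrane proteins of granulocyte and monocyte progenitors, shared the highest and the lowest library of Mpo, with a smaller span. Ms4a3 encodes a tetraspan membrane protein whose expression marks the granulocyte and monocyte lineage in mice. It had 90.7, 26.5 and 28.3 CPM in Hdc-GFPhi replicates 1 to 3, against 30.4, 21.5, 46.3 and 5.94 CPM in Hdc-GFPlo replicates 1 to 4. Its highest library was again Hdc-GFPhi replicate 1 and its lowest Hdc-GFPlo replicate 4, 15.3-fold apart. Ms4a3 had a log2 fold change of 0.90 ± 0.69 (SE; edgeR adjusted p = 0.646). It came to 0.07 without Hdc-GFPhi replicate 1.

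Clec12a encodes an inhibitory C-type lectin receptor of myeloid cells that recognises uric acid crystals. Its level was 80.4, 38.2 and 25.6 CPM in Hdc-GFPhi replicates 1 to 3, against 21.6, 18.5, 39.9 and 8.74 CPM in Hdc-GFPlo replicates 1 to 4. All Hdc-GFPhi libraries were above Hdc-GFPlo replicates 1, 2 and 4, and Hdc-GFPlo replicate 3 was above Hdc-GFPhi replicates 2 and 3. Its means were 48.1 ± 28.7 CPM over Hdc-GFPhi libraries (SD, n = 3) and 22.2 ± 13 CPM over Hdc-GFPlo libraries (SD, n = 4). Its log2 fold change of 1.12 ± 0.50 (SE) was the largest of the 10 genes and had the smallest unadjusted p among them, 0.052, with an adjusted p of 0.411 by edgeR. Without Hdc-GFPhi replicate 1 it was 0.53 ± 0.48, and without Hdc-GFPlo replicate 4 it was 0.85 ± 0.44.

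Igsf6 and Hp were highest in other libraries. Igsf6, an immunoglobulin superfamily membrane protein of myeloid cells, had 30.5, 35 and 16.7 CPM in Hdc-GFPhi replicates 1 to 3, against 8.53, 39.2, 19.5 and 1.79 CPM in Hdc-GFPlo replicates 1 to 4. Its highest library was Hdc-GFPlo replicate 2, and its lowest, at 37 counts, was Hdc-GFPlo replicate 4. Its log2 fold change was 0.67 ± 0.83 (SE; edgeR adjusted p = 0.792), and 0.29 ± 0.50 without Hdc-GFPlo replicate 4. Without Hdc-GFPlo replicate 2, where Igsf6 was highest, it was 1.46 ± 0.67 (edgeR adjusted p = 0.541).

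Hp had 91.7, 103 and 85.2 CPM in Hdc-GFPhi replicates 1 to 3, against 38.2, 91.5, 64.9 and 16.6 CPM in Hdc-GFPlo replicates 1 to 4. The 3 Hdc-GFPhi libraries lay close together, and only Hdc-GFPlo replicate 2 reached into their range. Means were 93.3 ± 9.0 CPM over Hdc-GFPhi libraries (SD, n = 3) and 52.8 ± 32.5 CPM over Hdc-GFPlo libraries (SD, n = 4). The log2 fold change of Hp was 0.82 ± 0.48 (SE; edgeR unadjusted p = 0.127, adjusted p = 0.530). Unlike those of Mpo, Elane and Ctsg it was as large without Hdc-GFPhi replicate 1, at 0.83 ± 0.62, and it was 0.52 ± 0.27 without Hdc-GFPlo replicate 4. The difference between these fold changes was not tested.

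Plac8 and Calr were steady over all libraries. Plac8 had 285, 234 and 211 CPM in Hdc-GFPhi replicates 1 to 3, against 212, 206, 239.8 and 269 CPM in Hdc-GFPlo replicates 1 to 4. It was the one gene of the 10 for which Hdc-GFPlo replicate 4 was the highest library of its group. Its log2 fold change was 0.07 ± 0.13 (SE; edgeR adjusted p = 0.874), and the sign turned to -0.06 without Hdc-GFPhi replicate 1.

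Calr encodes calreticulin, the lectin chaperone that folds glycoproteins in the endoplasmic reticulum, myeloperoxidase among them. It had 876, 1001 and 1121 CPM in Hdc-GFPhi replicates 1 to 3, against 1123, 1102, 1115 and 937 CPM in Hdc-GFPlo replicates 1 to 4. Here Hdc-GFPhi replicate 1, the highest library for Mpo, was the lowest. Hdc-GFPlo replicate 4 stood below the other 3 libraries of its group, which lay within 1102 to 1123 CPM. The log2 fold change of Calr was -0.10 ± 0.10 (SE; edgeR adjusted p = 0.729), the only one of the 10 below 0 with all libraries. It was -0.01 without Hdc-GFPhi replicate 1 and -0.20 without Hdc-GFPhi replicate 3.

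Read together, 9 of the 10 genes had a log2 fold change above 0, while 51.6% of all tested genes did. The median over the 10 was 0.86, against 0.01 over all genes. None of the 10 passed an adjusted p of 0.05 by edgeR, which called 0 of the 12917 genes (0%), with a smallest adjusted p of 0.211. DESeq2 called 344 of 12917 genes (2.66%) and 0 of the 10. At an unadjusted p under 0.05 by edgeR, 0 of the 10 were higher or lower, against 4.92% of all genes on the higher side in Hdc-GFPhi and 7.31% on the lower side. For all 10 the libraries of the 2 groups overlapped, also without Hdc-GFPlo replicate 4, whereas 6.02% of tested genes had every Hdc-GFPhi library above and 5.87% every one below. Exact two-sided permutation tests of single genes, over all 35 ways to label the libraries, gave p from 0.114 for Hp and 0.171 for Clec12a to 0.686 for Plac8, and 0.0571 is the smallest p that 3 libraries against 4 allow. A p that misses the threshold does not show that the levels were alike.

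The sign of the median rested on Hdc-GFPhi replicate 1. Without that library it was -0.02 and 4 of the 10 genes were above 0. Without Hdc-GFPlo replicate 4 it was 0.50 with 9 above 0, and without both libraries it was -0.08 with 4 above 0. In that last fit Mpo was at -0.54 ± 0.66, Elane at -0.55 ± 0.96 and Ctsg at -0.82 ± 0.67, while Hp was at 0.53 ± 0.32 and Clec12a at 0.25 ± 0.35. Some genes were higher at an unadjusted p under 0.05 by edgeR when another library was left out. Prtn3 and Clec12a were so without Hdc-GFPhi replicate 3 (edgeR adjusted p = 0.276 and 0.293), against 5.6% of all genes. Hp was so without Hdc-GFPlo replicate 2 (edgeR adjusted p = 0.447), against 3.87%, and Clec12a without Hdc-GFPlo replicate 3 (edgeR adjusted p = 0.461), against 3.71%.

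**Figure D2:**
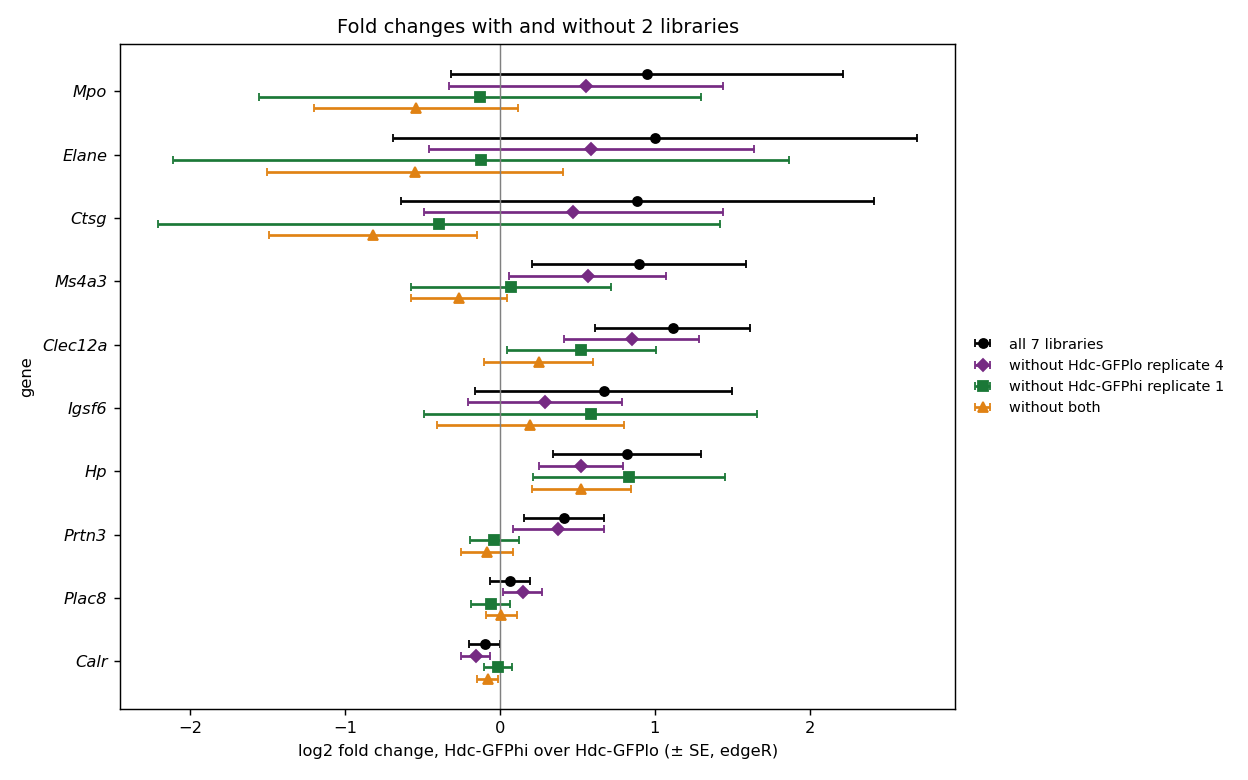
Log2 fold change of Hdc-GFPhi over Hdc-GFPlo (x axis) with its SE from edgeR for each gene (y axis), over all 7 libraries, without Hdc-GFPlo replicate 4, without Hdc-GFPhi replicate 1 and without both. Mpo is at 0.95 with all libraries and -0.54 without both, whereas Hp is at 0.82 and 0.53.

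The libraries at the ends of the range were the same for most of the genes. Hdc-GFPhi replicate 1 was the highest library for 7 of the 10, against 21.9% of all tested genes, and Hdc-GFPlo replicate 4 the lowest for 7 of the 10, against 14.9%. In Hdc-GFPhi replicate 1 the level exceeded that of the next highest library 1.87-fold for Mpo, 1.79-fold for Elane, 1.69-fold for Ctsg, 1.67-fold for Prtn3, 1.96-fold for Ms4a3 and 2.02-fold for Clec12a, and 1.06-fold for Plac8. That library was also the highest for 6 of the 10 eosinophil markers: Prg2, the eosinophil major basic protein, had 11750 counts in it and 12 to 171 counts in the other 6 libraries, and Epx, eosinophil peroxidase, 1897 and 0 to 116 counts, with Prg3, Ear1, Ear2 and Ear6 the others. The receptor genes did not follow: Il5ra had 0 counts in it and 0 to 43 in the other libraries, Ccr3 had 105 and 12 to 124, and Siglec5 had 98 and 80 to 169. Ear10 had 0 counts in every library. The part of eosinophil RNA in the levels of the 10 genes was not tested.

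Genes of the later, secondary and tertiary granules differed among themselves in Hdc-GFPlo replicate 4. Mmp8, neutrophil collagenase, had 3846, 3488 and 1205 counts in Hdc-GFPhi, against 509, 67 and 1444 in Hdc-GFPlo replicates 1 to 3 and 0 in replicate 4. Retnlg was at 0.773 CPM in replicate 4, against a mean of 22.9 CPM in replicates 1 to 3 of its group. Ngp, a secondary granule protein, had 1452, 1949 and 2060.2 CPM in Hdc-GFPhi, against 994, 2259, 1261 and 853 CPM in Hdc-GFPlo replicates 1 to 4. The 15 genes listed as secondary and tertiary granule genes summed to 6342, 9168 and 7602 CPM in Hdc-GFPhi, against 3867, 8136, 4783 and 3277 CPM in Hdc-GFPlo. The list also holds S100a8 and S100a9, whose proteins are mainly cytosolic, and Olfm4 and Hpx, which had 0 counts in every library. Hdc-GFPlo replicate 4 was thus the lowest library for this sum as well, with replicate 1 next to it. Abundant genes such as Ngp, S100a8 and S100a9 make up most of the sum. Of these genes 13 were tested, 12 had a positive log2 fold change, 6 were higher at an unadjusted p under 0.05 by edgeR (4.92% of all genes), and their median was 0.74. The count was 2 (2.75% of all genes) and the median 0.81 without Hdc-GFPhi replicate 1, where the median of the 10 was -0.02. Without Hdc-GFPlo replicate 4 the count was 4 (5.37% of all genes) and the median 0.56. Mmp9, the gelatinase of tertiary granules, had the smallest p among them, with 100.03 ± 34.6 CPM over Hdc-GFPhi libraries (SD, n = 3), 30.4 ± 13.6 CPM over Hdc-GFPlo libraries (SD, n = 4) and an edgeR adjusted p of 0.226 (DESeq2 adjusted p = 0.0335).

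**Figure D3:**
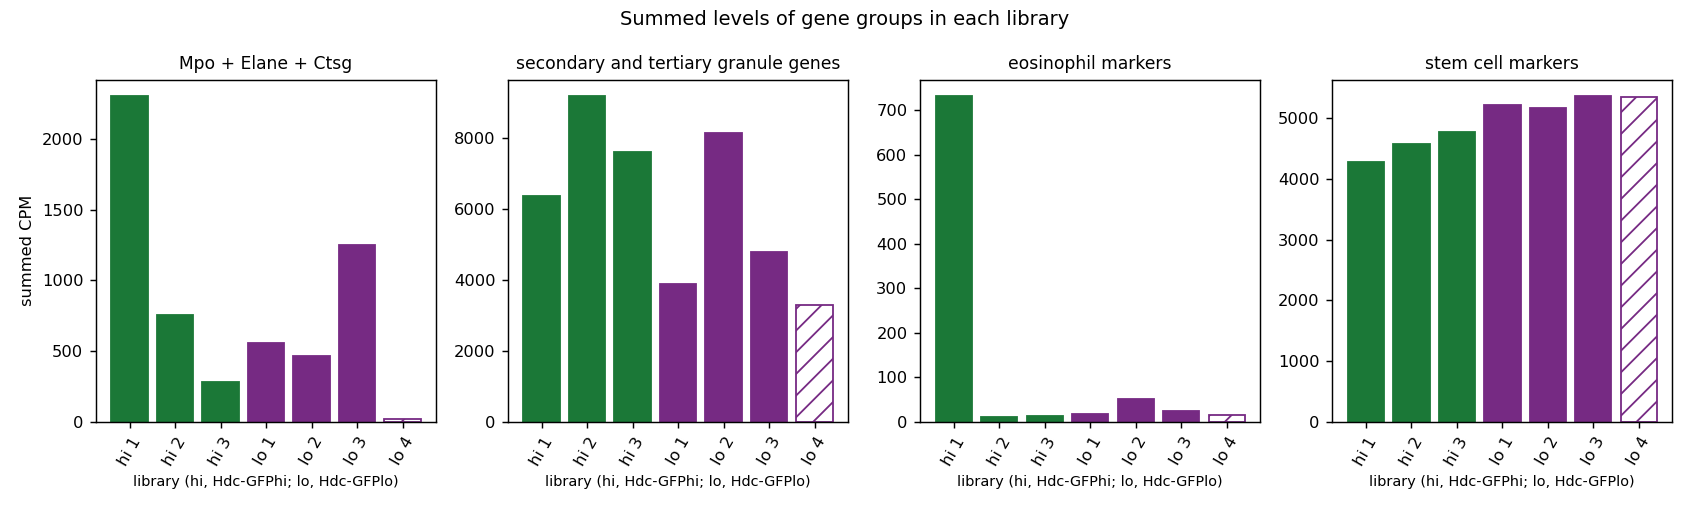
Summed TMM-normalized CPM (y axis) in each library (x axis) of Mpo, Elane and Ctsg, of 15 genes listed as secondary and tertiary granule genes, of 10 eosinophil markers and of 12 HSC markers. The 15 genes include S100a8 and S100a9. Hatched bars are Hdc-GFPlo replicate 4. The first sum is 2302 CPM in Hdc-GFPhi replicate 1 and 19.6 CPM in Hdc-GFPlo replicate 4, whereas the HSC markers lie between 4271 and 5362 CPM in all libraries.

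Composition of the granule set was read as counts per 100 counts of Mpo, which compares libraries and not genes. Elane had 27.2, 28.2 and 20.5 counts per 100 of Mpo in Hdc-GFPhi replicates 1 to 3, against 32.6, 14.4 and 28.4 in Hdc-GFPlo replicates 1 to 3 and 0 in replicate 4. Ctsg kept a narrower ratio, 6.27, 5.24 and 4.91 in Hdc-GFPhi, against 6.76, 4.08 and 6.96 in Hdc-GFPlo replicates 1 to 3 and 0 in replicate 4. In these 6 libraries both proteases thus stayed nearer to proportion with Mpo than Prtn3 did. Prtn3 had 14.3, 23.1 and 46.3 counts per 100 of Mpo in Hdc-GFPhi, against 30.1, 26.1, 16.0 and 569 in Hdc-GFPlo replicates 1 to 4, so it was lowest where Mpo was highest. In Hdc-GFPlo replicate 4, 405 counts of Mpo thus stood beside 2303 of Prtn3 and 0 of Elane and of Ctsg. Mpo made up 43.1%, 24.3% and 12% of all counts of the 10 genes in Hdc-GFPhi, against 18.9%, 19.2%, 31.6% and 1.43% in Hdc-GFPlo replicates 1 to 4.

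Per kilobase of exon, the scale on which genes can be set beside each other, Calr was highest in Hdc-GFPhi at 347 ± 42.7 CPM per kilobase, followed by Mpo at 245 ± 230, Elane at 229 ± 223, Plac8 at 153 ± 23.8 and Prtn3 at 92.6 ± 43.6 (SD, n = 3). Hp at 58.1 ± 5.60, Ctsg at 48.1 ± 49.9, Ms4a3 at 25.8 ± 19.4, Igsf6 at 12.6 ± 4.37 and Clec12a at 8.70 ± 5.19 came after them. The ranges of mean ± SD overlapped for every pair of neighbours in this order. In Hdc-GFPlo the order began with Calr at 371 ± 30.9, Plac8 at 146 ± 18, Mpo at 127 ± 108 and Elane at 114 ± 115 CPM per kilobase (SD, n = 4), where the ranges of Calr and Plac8 did not overlap and those of Plac8, Mpo and Elane did. In Hdc-GFPlo replicate 4 alone, Calr at 325, Plac8 at 169 and Prtn3 at 64.2 led, with Mpo at 5.71 CPM per kilobase below Hp at 10.3.

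The likeness of profiles was measured as the root mean square difference of centred log2(CPM + 2) over the 7 libraries, among the 10469 genes that averaged 5 CPM or more. Ctsg (0.30) and Elane (0.61) were the nearest genes to Mpo, and Ms4a3 was at position 5 (0.98). Igsf6 and Clec12a were both at 1.14, positions 9 and 10, and Hp was at position 23 (1.30). Prtn3 was at position 284 (1.64), and Calr (1.86, position 4332) and Plac8 (1.88, position 5048) lay near the median over genes of 1.88. The measure is not scaled for span, so a gene that varies little lies near that median whatever its order of libraries. From Hdc-GFPhi replicate 1 down to Hdc-GFPlo replicate 1, Prtn3 ranked the libraries as Mpo did. As these points share 7 libraries with 1 very high and 1 very low value, the measure describes those libraries and carries no p.

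Outside the 10, the genes nearest to Mpo were Atp8b4, a phospholipid-transporting ATPase subunit gene, Ly6c2, a surface antigen of monocytes and granulocyte progenitors, the inhibitory receptor gene Lilrb3, Retnlg, a resistin-like gene of neutrophils, and Adam8, a membrane metalloprotease. Atp8b4 had 29.0, 12.6 and 6.78 CPM in Hdc-GFPhi, against 7.99, 14.8, 13.7 and 0.0966 CPM in Hdc-GFPlo replicates 1 to 4, the last of these from 2 counts. Ly6c2 had 187, 82.8 and 55.3 CPM in Hdc-GFPhi, against 44.8, 88.8, 88.4 and 10.8 CPM in Hdc-GFPlo. Hrh2, the histamine receptor H2 gene, was among the 8 genes nearest to the mean profile of Elane, Prtn3 and Ctsg, with 183, 151 and 106 counts in Hdc-GFPhi, against 131, 79, 179 and 1 in Hdc-GFPlo replicates 1 to 4. That mean lay far from some of its own genes. Hrh2 was at 0.79 from it, while Elane was at 0.96 (position 19) and Prtn3 at 1.21 (position 191). Nearness to the mean is thus not likeness to each protease.

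**Figure D4:**
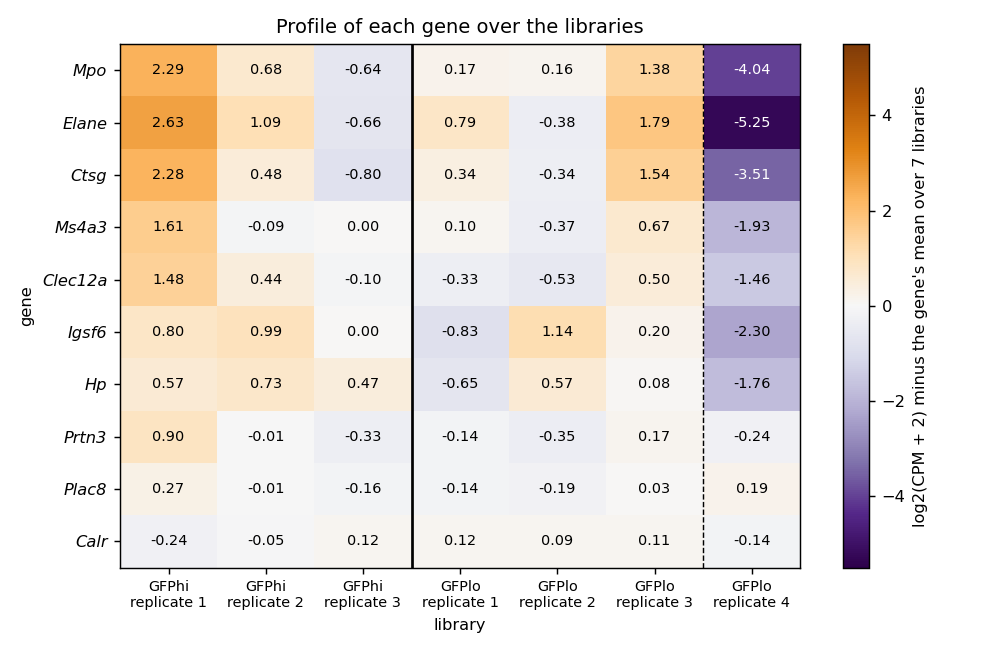
Centred profile of each gene (rows), as log2(CPM + 2) minus the gene's mean over the 7 libraries (columns); orange is above and purple below the mean, the solid line parts Hdc-GFPhi from Hdc-GFPlo and the dashed line sets Hdc-GFPlo replicate 4 apart. Mpo, Elane and Ctsg are at 2.29, 2.63 and 2.28 in Hdc-GFPhi replicate 1 and at -4.04, -5.25 and -3.51 in Hdc-GFPlo replicate 4, while Plac8 and Calr stay within -0.24 to 0.27.

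Genes that activate, store or inhibit the granule proteases had steady summed levels, but most of each sum came from Srgn and Serpina3g. The sum does not show that each gene of the list was steady. All 10 listed were detected in every library. Their summed level was 2972 to 3209 CPM in Hdc-GFPhi, against 2943 to 3091 CPM in Hdc-GFPlo replicates 1 to 3 and 3195 CPM in replicate 4. Of the 10, 6 had a positive log2 fold change and the median was 0.05. At an unadjusted p under 0.05 by edgeR, 2 were higher (Slpi and Serpina3g) and 1 was lower (Srgn) in Hdc-GFPhi, against 4.92% and 7.31% of all genes, and none passed the adjustment. Of the 10, 4 were positive and the median was -0.06 without Hdc-GFPhi replicate 1. Slpi, the secretory leukocyte peptidase inhibitor that blocks elastase and cathepsin G, had 34.1, 22.5 and 19.8 CPM in Hdc-GFPhi, against 7.80, 17.5, 10.2 and 3.82 CPM in Hdc-GFPlo replicates 1 to 4, so the groups did not overlap. Its log2 fold change was 1.37 ± 0.43 (SE; edgeR unadjusted p = 0.0103, adjusted p = 0.299). Srgn, the serglycin core protein that holds proteases in the granule, averaged 875 ± 131 CPM over Hdc-GFPhi libraries (SD, n = 3) and 1108 ± 153 CPM over Hdc-GFPlo libraries (SD, n = 4; edgeR adjusted p = 0.336), and it was highest, at 1286 CPM, in Hdc-GFPlo replicate 4. Ctsc, the dipeptidyl peptidase that activates Elane, Prtn3 and Ctsg, had 140.3 ± 18.5 CPM in Hdc-GFPhi and 159.7 ± 15.2 CPM in Hdc-GFPlo, with a log2 fold change of -0.19 ± 0.12 (SE; edgeR adjusted p = 0.552). In Hdc-GFPlo replicate 4, which had no Elane or Ctsg counts, Ctsc was at 139 CPM and Serpinb1a, an inhibitor of these proteases, at 257 CPM.

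Among other bactericidal and lysosomal proteins of the granule, 15 of 18 were tested, 8 had a positive and 7 a negative log2 fold change, and the median was 0.02. Lyz2, lysozyme of myeloid cells, was the 1 gene higher at an unadjusted p under 0.05 (4.92% of all genes), with 1360.5, 1801 and 1554 CPM in Hdc-GFPhi, against 1139, 1614, 1171 and 995 CPM in Hdc-GFPlo replicates 1 to 4 (edgeR adjusted p = 0.401). The 1 lower gene (7.31% of all genes) was Arsb, the lysosomal arylsulfatase B, at 41.2 ± 1.35 CPM over Hdc-GFPhi libraries (SD, n = 3) and 59.0 ± 6.32 CPM over Hdc-GFPlo libraries (SD, n = 4), with an adjusted p of 0.235 by edgeR and 0.0139 by DESeq2.

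Early granulocyte progenitor genes outside the 10 mostly had positive differences, none of them beyond the spread between libraries. Of 20 tested, 18 had a positive log2 fold change (51.6% of all genes). At an unadjusted p under 0.05 by edgeR, 0 were higher (4.92% of all genes) and 0 lower (7.31%). The median was 0.33. It was 0.14 without Hdc-GFPhi replicate 1, 0.21 without Hdc-GFPlo replicate 4 and 0.03 without both, where 14 of the 20 were positive. Their summed level was 1245, 881 and 928 CPM in Hdc-GFPhi, against 788, 975, 905 and 683 CPM in Hdc-GFPlo replicates 1 to 4. Fcnb, ficolin B of the granule, had 1551, 1112 and 1325 counts in Hdc-GFPhi, against 459, 1548, 435 and 41 in Hdc-GFPlo. As for Igsf6 and Hp, replicate 2 was the highest and replicate 4 the lowest library of the Hdc-GFPlo group. Nkg7 had a log2 fold change of 0.23 ± 0.10 and Mgst1 of 0.23 ± 0.24 (SE; edgeR adjusted p = 0.411 and 0.735).

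Of 12 transcription factors known to act on granule genes, all were detected in every library and 9 had a positive log2 fold change, with a median of 0.33. At an unadjusted p under 0.05 by edgeR, Cebpd and Klf4 were higher and Cbfb lower in Hdc-GFPhi (4.92% and 7.31% of all genes), at adjusted p of 0.381, 0.357 and 0.351. Without Hdc-GFPhi replicate 1 the median was 0.13, without Hdc-GFPlo replicate 4 it was 0.19 and without both 0.06. In each of these 3 fits 0 of the 12 were higher or lower at that p. Of all genes, 2.75% were higher and 4.75% lower without Hdc-GFPhi replicate 1, and 5.37% and 7.57% without Hdc-GFPlo replicate 4. Without both, 407 of 13160 genes were higher and 799 lower. Gfi1, a repressor needed for neutrophil differentiation, had 12.4, 5.49 and 17.3 CPM in Hdc-GFPhi, against 10.7, 11.3, 9.64 and 3.58 CPM in Hdc-GFPlo replicates 1 to 4, and was thus low where Mpo was lowest but high in Hdc-GFPhi replicate 3, where Mpo was next to lowest. The PU.1 gene, listed as Sfpi1, had 150.3, 112 and 115 CPM in Hdc-GFPhi, against 107, 107, 106 and 101 CPM in Hdc-GFPlo replicates 1 to 4 (log2 fold change 0.25 ± 0.12, SE; edgeR adjusted p = 0.414). Its level ran from 101 CPM in Hdc-GFPlo replicate 4 to 150.3 CPM in Hdc-GFPhi replicate 1. These were also the lowest and highest libraries for Mpo, which spanned 88.2-fold. A link between the 2 genes was not tested. Cebpe, which drives the switch to secondary granules, averaged 4.26 ± 1.43 CPM over Hdc-GFPhi libraries (SD, n = 3) and 2.99 ± 0.765 CPM over Hdc-GFPlo libraries (SD, n = 4).

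Calr was set beside 18 genes of glycoprotein folding in the endoplasmic reticulum. Of these, 12 had a negative log2 fold change and 3 (Canx, Dnajc3 and Calu) were lower in Hdc-GFPhi at an unadjusted p under 0.05 by edgeR (7.31% of all genes), with a median of -0.05. Without Hdc-GFPhi replicate 1 the sign of the median turned to 0.04, with 12 positive and 6 negative. In that fit 1 was higher at that p (2.75% of all genes) and 2 were lower (4.75%). Without Hdc-GFPlo replicate 4 the median was -0.105, with 16 negative and 3 lower (7.57% of all genes). Canx, calnexin, the membrane-bound partner of Calr, had 594, 699.7 and 858 CPM in Hdc-GFPhi, against 1012, 1092, 1051 and 872 CPM in Hdc-GFPlo replicates 1 to 4, with no overlap. Its adjusted p was 0.238 by edgeR and 0.00930 by DESeq2. As for Calr, the lowest library was Hdc-GFPhi replicate 1 and the lowest of its group Hdc-GFPlo replicate 4. The list summed to 6131, 7508 and 8052 CPM in Hdc-GFPhi, against 8031, 8261, 7974 and 6683 CPM in Hdc-GFPlo.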

How the data were processed

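Per the labels' protocols, RNA of 500 sorted cells was isolated with a PicoPure kit, amplified by SMARTer Ultra Low Input chemistry, in which strand is not marked, and made into Nextera XT libraries. No molecular identifiers are mentioned, so PCR duplicates remain in the counts. Per the submitters' processing notes, bcl2fastq 1.8.4, TopHat2 (written as 2.0.4 and as 2.04), Bowtie2 and HTSeq 0.6.1 were used with the mouse build mm9. Which annotation, strand setting or read filters were applied is not given in the sources used here. Raw counts per gene symbol were deposited by the authors, without pooling. Overlapping, antisense or near-identical genes cannot be separated in them, which bears on serine proteases and Ly6c genes.

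Columns were matched to samples by the library code in the description. They name the fractions GFPplus and GFPminus. In R 4.3.3 with edgeR 4.0.16, filterByExpr (minimum count 10) kept 12917 of 23284 genes, and 6927 genes had no count. Counts were scaled by TMM and tested by robust quasi-likelihood F tests with a group term alone, adjusted by Benjamini-Hochberg over all tested genes, at a threshold of 0.05. The SE is the absolute log2 fold change over the root of F. The common biological coefficient of variation was 35.3%. Log2 levels used a pseudocount of 2 CPM. The steps were first tested on simulated data. Pairs of libraries differed by a chi-square of 25.8 to 143 per degree of freedom, so none was counted as a repeat of another. Exon lengths came from GENCODE M21 (GRCm38), whose coordinates were not applied to the mm9 counts, and promoters from RefSeq (GRCm38.p6).

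The genes, lists and tests were chosen with earlier results of these data known. Named were the 10 genes, up to 3 genes per list with the smallest unadjusted p under 0.05, partners fixed by role, and the 8 nearest profiles to Mpo and to the mean of Elane, Prtn3 and Ctsg. Ngp, Med16, Mmp8, Sept6, Prg3, the Ear genes, Il5ra, Ccr3, Siglec5, S100a8, S100a9, Olfm4 and Hpx were named after their values were seen. So were Cst7, Lpo and Mcpt8, which these rules do not cover. Spi1 is listed as Sfpi1, matched by its RefSeq synonym. Alternatives were other scalings and filters, DESeq2 1.42.0, limma 3.58.1 voom with quality weights, no robust setting, a replicate block, leaving out each library, and leaving out both Hdc-GFPhi replicate 1 and Hdc-GFPlo replicate 4.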

Additional observations from a re-analysis of the deposited data

Results flagged for a closer look

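In the 4 Hdc-GFPlo libraries, 1 library stood apart by Dixon's gap test for 5 of the 52 genes looked at in this way. For each, the gap of the outermost library to its nearest neighbour is given as a share of the group's range in log2(CPM + 2), and the genes named had a gap past the 95% critical value for 4 samples. Chance puts about 1 group in 20 past it, and 5.85% of all tested genes had such a library. Calr was low in Hdc-GFPlo replicate 4, at 937 CPM against 1102 to 1123 CPM in replicates 1 to 3, a gap of 0.895. Gfi1 was low in the same library, at 3.58 CPM against 9.64 to 11.3 CPM, a gap of 0.844. Bpi, the bactericidal permeability-increasing protein, had 33 counts in Hdc-GFPlo replicate 4 against 0 in the other 3 libraries of the group, a gap of 1.0. In Hdc-GFPhi replicates 1 to 3 it had 21, 23 and 0 counts. Cfd was high in Hdc-GFPlo replicate 2, at 39 counts against 0 to 3 counts, a gap of 0.901. Prss57 was high in Hdc-GFPlo replicate 3, at 33.2 CPM against 16.8 to 18.6 CPM, a gap of 0.856. Mpo in Hdc-GFPlo replicate 4 had a gap of 0.774, short of the critical value. Of all tested genes, 154 (1.19%) had Hdc-GFPlo replicate 4 past the critical value on the low side.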

How the results depend on the processing

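In Hdc-GFPlo replicate 4, 3 counts are 0.145 CPM, far below the level of Elane and Ctsg in the other libraries, and this limit covers counting error only. Of all genes, edgeR called 0 with every library left out in turn, while 1579 were at an unadjusted p under 0.05 (997 to 1884 with a library left out, the lowest without Hdc-GFPhi replicate 1), and DESeq2 called 344. Of the 10 genes, 0 were at an unadjusted p under 0.05, 1 with limma voom and 0 to 2 with a library left out. With limma voom 1662 of 12917 genes were at that p. The split of higher and lower genes was 635 and 944, but 826 and 768 with library totals and 796 and 828 with upper quartiles, and no scaling moved the median of all genes by over 0.1. The median of the 10 was 0.86, or -0.02 to 1.13 with a library left out. With a library left out, log2 fold changes ranged from -0.13 to 1.64 for Mpo, -0.12 to 1.86 for Elane, -0.39 to 1.8 for Ctsg, -0.035 to 0.64 for Prtn3, -0.060 to 0.15 for Plac8, 0.074 to 1.33 for Ms4a3, 0.29 to 1.46 for Igsf6, 0.53 to 1.56 for Clec12a, 0.52 to 1.22 for Hp, -0.20 to -0.010 for Calr, 0.17 to 3.21 for Klf4, -0.036 to 0.72 for Cst7, -0.37 to 0.29 for Prss57 and -0.13 to 0.15 for Serpinb1a. With both Hdc-GFPhi replicate 1 and Hdc-GFPlo replicate 4 left out, the values were -0.54 for Mpo, -0.55 for Elane, -0.82 for Ctsg, -0.27 for Ms4a3, -0.081 for Prtn3, -0.26 for Cst7, -0.18 for Klf4, -0.46 for Prss57 and -0.12 for Serpinb1a. With limma voom, Prss57 was at -0.17 and Serpinb1a at -0.0021. The cause of these changes was not tested.

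Same-numbered libraries did not deviate together (correlations -0.014, -0.036 and -0.144), so the numbers were not taken as pairs. With the replicate block (without Hdc-GFPlo replicate 4) edgeR called 0 genes, and Prss57 was at -0.074. In that fit 1 of the 10, Hp, was higher at an unadjusted p under 0.05 (edgeR adjusted p = 0.380), against 583 of 12807 genes.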

Other observations

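Of 42 genes that neighbour or are related to the 10 and are in the table, 22 were tested and 11 had no count in any library. Of those tested, 19 had a positive log2 fold change, 2 were higher at an unadjusted p under 0.05 by edgeR (4.92% of all genes), Clec1b and Farsa, and the median was 0.15. Without Hdc-GFPhi replicate 1, 11 of 23 were positive and the median was -0.02. In that fit 0 were higher at that p (2.75% of all genes) and 1 was lower (4.75%). Farsa, which follows Calr on chromosome 8 and encodes a subunit of phenylalanyl-tRNA synthetase, averaged 207 ± 12.9 CPM over Hdc-GFPhi libraries (SD, n = 3) and 175 ± 12.2 CPM over Hdc-GFPlo libraries (SD, n = 4), with an edgeR adjusted p of 0.334. Clec1b, a C-type lectin gene 2 places after Clec12a, had 84, 34 and 25 counts in Hdc-GFPhi, against 3, 5, 10 and 17 in Hdc-GFPlo replicates 1 to 4 (edgeR adjusted p = 0.351). Mcpt8, the gene before Ctsg on chromosome 14, had 0 to 35 counts in every library, and Lpo, the peroxidase gene after Mpo, 0 to 4.

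Other cell types were read as summed marker levels. Monocyte and macrophage markers summed to 69.0 to 164 CPM in Hdc-GFPhi, against 77.7 to 197 CPM in Hdc-GFPlo replicates 1 to 3 and 58.9 CPM in replicate 4. Basophil and mast cell markers summed to 13 to 17.2 CPM in Hdc-GFPhi, against 18.4 to 20.7 CPM in Hdc-GFPlo replicates 1 to 3 and 7.15 CPM in replicate 4. Megakaryocyte markers, all 9 detected in every library, summed to 925 to 1226 CPM in Hdc-GFPhi. In Hdc-GFPlo they summed to 623 to 661 CPM in replicates 1 to 3 and to 982 CPM in replicate 4. All 9 had a positive log2 fold change, and 3 were higher at an unadjusted p under 0.05 by edgeR (4.92% of all genes). Without Hdc-GFPlo replicate 4 the count was 6 (5.37% of all genes). Klf4, one of the factors above, had 281 counts in Hdc-GFPhi replicate 1 and 17 to 19 in the other Hdc-GFPhi libraries, against 3 to 20 in Hdc-GFPlo. Kit, the stem cell factor receptor gene, averaged 1198 ± 180 CPM over Hdc-GFPhi libraries (SD, n = 3) and 1590.3 ± 81.3 CPM over Hdc-GFPlo libraries (SD, n = 4), with an adjusted p of 0.231 by edgeR and 0.00789 by DESeq2.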
